A study of Schizosaccharomyces pombe with 24 samples.

Results

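The genes described here are 25 fission yeast genes whose symbols begin with utp, nop, rrp, noc, nog, imp, brx or ebp followed by a number, the names under which most ribosome biogenesis factors are known. They were found by matching the gene symbol of each probe set to the pattern ^(utp|nop|rrp|noc|nog|imp|brx|mrd|ebp|rrb)[0-9], and each of the 25 had 1 probe set among the 4981 features tested. RefSeq lists 70 symbols that match, and the other 45 had no probe set under such a symbol and were not analysed here. By role, 10 members belong to the small-subunit processome (utp4, utp5, utp10, utp13, utp15, utp20, utp23, imp3, nop9, nop14). Another 9 act in large-subunit assembly (brx1, ebp2, noc3, nog1, nop12, nop16, nop52, rrp8, rrp16). Of the rest, nop10 belongs to the H/ACA snoRNP, and 3 members encode subunits of the RNA exosome (rrp6, rrp41, rrp46). The remaining 2 carry a matching name but act elsewhere: imp1 encodes an importin alpha of nuclear import, and imp2 a membrane-binding protein of cytokinesis. The label therefore holds for 23 of the 25.

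Ribosomes are built in the nucleolus, where RNA polymerase I makes a long precursor ribosomal RNA. The small-subunit processome assembles on the precursor while it is made and is needed for the cuts that release the small-subunit RNA. Other factors fold and modify the large-subunit RNA, box H/ACA snoRNPs direct pseudouridylation, and the exosome trims and degrades RNA ends. In yeasts the genes of these factors are known to be expressed together during growth and to be lowered in stress.

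Total RNA of asynchronous Schizosaccharomyces pombe cultures was measured on 24 Affymetrix arrays, 1 per sample, to compare strains lacking histone acetyltransferases (HATs) with wild type. The mutants were the triple deletion Δgcn5 Δelp3 Δmst2 (1 array), Δgcn5 Δelp3 (2 arrays), and Δmst2 Δelp3, Δelp3, mst1-ts, Δgcn5 Δmst2, Δgcn5 and Δmst2 (3 arrays each), and wild type had 3. Gcn5 and Elp3 are GNAT-family HATs, Elp3 within Elongator, while Mst2 and the essential Mst1 belong to the MYST family. All cultures were labelled as grown at 30 °C. In mst1-ts the chromosomal mst1 is deleted and a temperature-sensitive copy is driven by an nmt promoter at leu1, and its mst1 probe set read 11.94, 11.61 and 11.38 log2 units against 10.56, 10.58 and 10.09 in wild type. The deletions carry kanMX or ura4 in place of the gene, and all strains, wild type included, carry ade6 and ura4 mutations, with leu1-32 in all but mst1-ts, where leu1 holds the construct. Of the strains that the study names beside its array comparisons, Δgcn5 is h- and the others are h+, and Δgcn5 and Δgcn5 Δmst2 also carry his3-D1. On the triple-mutant array the 7 M-cell-specific (h-) genes had a median change from wild type of 2.35. The 4 P-cell-specific (h+) genes had 2.04, and the mating type of that array was not tested. Replicates were independent isolates of a strain, so p-values cover the spread between isolates. In such bulk RNA, fewer cells with a transcript and less transcript per cell cannot be told apart.

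Array medians lay between 10.99 and 11.08 log2 units. The elp3 transcript lay at 5.93 to 6.98 in the groups lacking elp3 and at 11.04 to 12.03 elsewhere, the doubted libraries below aside. The library labelled Δgcn5 replicate 2 had gcn5 at 10.93 and mst2 at 5.21, and the library labelled Δmst2 replicate 2 had gcn5 at 5.43 and mst2 at 10.01, both against their labels. Each thus had the levels that go with the label of the other. The M-cell-specific genes had a median deviation from the wild-type mean of 0.02 on Δgcn5 replicate 2, against 3.24 and 4.10 on replicates 1 and 3. It was 2.78 on Δmst2 replicate 2, against -0.01 and 0.12 on replicates 1 and 3. An exchange of labels was not tested. The library labelled wild-type replicate 2 had mst2 at 8.73, against 9.89 and 10.13 in the others. Libraries were kept under their labels, and the comparisons of Δgcn5 and Δmst2 are given with and without these 2 doubted mutant libraries. The labels give 2 experiment dates. All strains lacking elp3 belong to the second, and mst1-ts, Δgcn5, Δmst2 and wild type belong to the first, as do replicates 1 and 2 of Δgcn5 Δmst2, whose replicate 3 belongs to the second. Changes below are log2 fold changes ± standard error from limma, with p adjusted by Benjamini-Hochberg over all 4981 features. Rose or fell means an adjusted p under 0.05. Shares of all features that rose or fell use the same threshold. Shares at an unadjusted p are not given, so counts of members at that level have no background here.

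The members stood higher than wild type in the strains lacking elp3 and lower in mst1-ts and Δgcn5 Δmst2. The deviation of each member from its wild-type mean was taken on each array, and the median over the 25 was used to describe that array. It was 0.19 in the triple mutant, 0.42 and 0.40 in Δgcn5 Δelp3, 0.26, 0.44 and 0.37 in Δmst2 Δelp3, and 0.34, 0.35 and 0.51 in Δelp3. It was -0.30, -0.24 and -0.24 in mst1-ts and -0.33, -0.35 and -0.20 in Δgcn5 Δmst2. The wild-type arrays themselves were spread widely, with 0.31 in replicate 1, 0.13 in replicate 2 and -0.41 in replicate 3. Thus the arrays of Δelp3 and Δgcn5 Δelp3 lay above all wild-type arrays, 2 of 3 arrays of Δmst2 Δelp3 did so, and every array of mst1-ts and Δgcn5 Δmst2 lay within the wild-type range. The arrays labelled Δgcn5 were at 0.12, 0.13 and -0.49 and those labelled Δmst2 at -0.24, -0.25 and -0.00, with the doubted library given second in each, and of these 6 only Δgcn5 replicate 3 lay outside it. The array medians of the 119 cytosolic ribosomal protein genes, the mature ribosome's own components, were closer to 0. They lay between -0.18 and -0.06 in Δmst2 Δelp3, -0.11 and -0.08 in Δgcn5 Δelp3, -0.10 and -0.07 in Δgcn5 Δmst2, -0.07 and -0.01 in Δelp3, -0.02 and -0.01 in mst1-ts, and -0.01 and 0.02 in wild type.

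**Figure D1:**
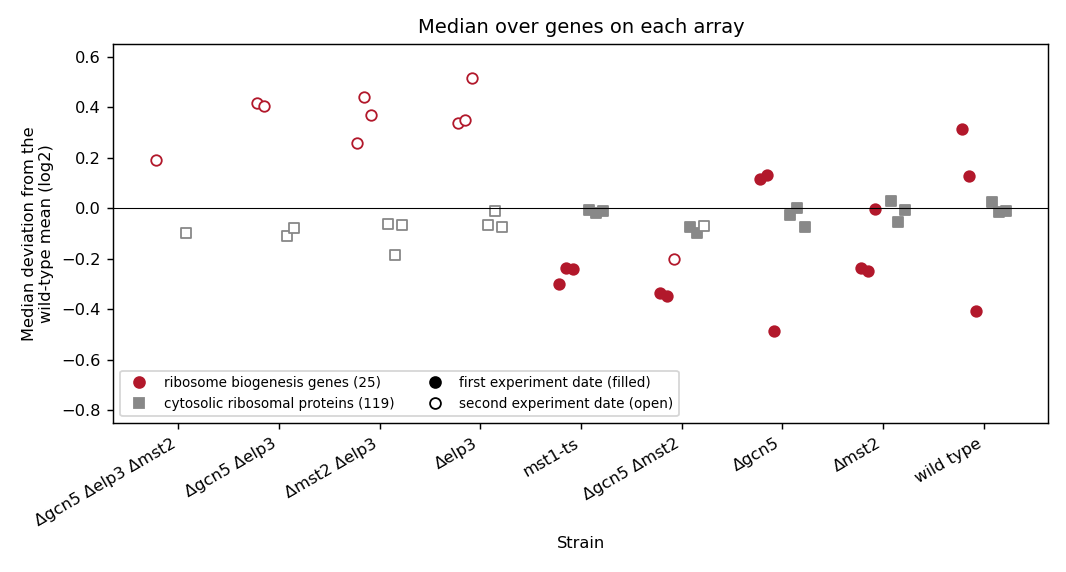
Median deviation from the wild-type mean (y axis, log2) on each array, by strain (x axis), for the 25 ribosome biogenesis genes (circles) and 119 cytosolic ribosomal protein genes (squares); filled symbols are arrays of the first experiment date and open symbols those of the second. The wild-type circles span -0.41 to 0.31, and all arrays lacking elp3 are open circles above 0.

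In Δelp3, 7 of the 25 members rose and none fell, which is 28.0% against 13.0% of all features that rose and 8.49% that fell. Small-subunit processome genes gave 5 of the 7, with 5 of their 10 members up and a median of 0.54, against a median of 0.39 over the 25 and 0.02 over all features. The largest rise was in utp4, in budding yeast a subunit of the UtpA complex that starts processome assembly. It read 12.12, 11.92 and 12.01 in Δelp3, against 11.35, 11.01 and 10.52 in wild type, so that the groups did not overlap. This was a change of 1.05 ± 0.22 (limma adjusted p = 0.00241), or 2.08-fold. The GTPase gene nog1, whose product acts in large-subunit assembly, read 13.04, 12.69 and 13.09 in Δelp3, against 12.29, 12.31 and 11.58 in wild type, and rose by 0.88 ± 0.22 (adjusted p = 0.00964). All Δelp3 arrays again lay above all wild-type arrays. The processome gene nop14 rose by 0.80 ± 0.25 and the large-subunit gene nop12, which encodes an RNA-binding protein, by 0.79 ± 0.26. The other genes that passed were utp5 (0.64 ± 0.18), utp13 (0.57 ± 0.17), in budding yeast a subunit of the UtpB complex, and imp3 (0.50 ± 0.17). Counted by overlap, 10 members had every Δelp3 array above every wild-type array and 1, nop10, had every array below, which is 40% and 4% of members against 23.5% and 19.3% of all features. Sporulation genes also moved in the strains lacking elp3: of 15, 6 rose and 2 fell in Δelp3, 6 rose and 1 fell in Δgcn5 Δelp3, and 6 rose and none fell in Δmst2 Δelp3. Their array medians were 0.33 to 0.48 in Δelp3, against -0.09 to 0.04 in wild type, and their part in the members' values was not tested. No member reached the 3.25-fold threshold of the study's methods in this or any other comparison.

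The double mutants lacking elp3 gave nearby values against the same wild-type arrays. In Δgcn5 Δelp3, 8 members rose and none fell (32.0%, against 12.5% and 9.01% of all features), with a median of 0.39. The nog1 transcript read 13.09 and 13.07 there, above the wild-type values just given, and rose by 1.02 ± 0.25 (limma adjusted p = 0.00828). The processome gene nop14 read 11.85 and 11.76 in Δgcn5 Δelp3, against 11.12, 10.98 and 10.27 in wild type, a rise of 1.02 ± 0.28 (adjusted p = 0.0168). Both arrays lay above all wild-type arrays. The others that rose were nop12 (0.88), utp4 (0.70), utp5 (0.68), noc3 (0.60), a factor of early large-subunit particles, utp13 (0.56) and the large processome protein gene utp20 (0.51). In Δmst2 Δelp3, 5 members rose and 1 fell (20% and 4%, against 12.7% and 9.19% of all features), with a median of 0.33. Those that rose were nog1 (0.89 ± 0.22), utp4 (0.89 ± 0.22), nop14 (0.74 ± 0.25), utp5 (0.68 ± 0.18) and noc3 (0.54 ± 0.15). By overlap, 13 members lay wholly above wild type in Δgcn5 Δelp3 and 8 in Δmst2 Δelp3, against 31.4% and 24.1% of all features, and nop10 alone lay wholly below in each (29.0% and 19.7%).

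The member that fell was nop10, which encodes a small core protein of the H/ACA snoRNP. It read 13.01, 12.27 and 13.11 in Δmst2 Δelp3, 12.93 and 12.86 in Δgcn5 Δelp3, 12.78, 13.12 and 12.95 in Δelp3 and 12.92 in the triple mutant, against 13.89, 13.43 and 13.34 in wild type. Every array lacking elp3 lay below every wild-type array. The change passed in Δmst2 Δelp3 (-0.76 ± 0.26, limma adjusted p = 0.0419). It was -0.60 ± 0.26 in Δelp3 (adjusted p = 0.0994) and -0.66 ± 0.29 in Δgcn5 Δelp3 (adjusted p = 0.11). The call in Δmst2 Δelp3 was lost without Δmst2 Δelp3 replicate 2, wild-type replicate 1 or wild-type replicate 2 (highest adjusted p 0.229), after quantile normalization, with only the groups compared fitted, and with the experiment date as a covariate (0.355). The large-subunit gene rrp16 had high values without passing, with 11.96, 12.07 and 12.49 in Δelp3 against 12.21, 11.42 and 10.02 in wild type (0.96 ± 0.40, adjusted p = 0.097).

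**Figure D2:**
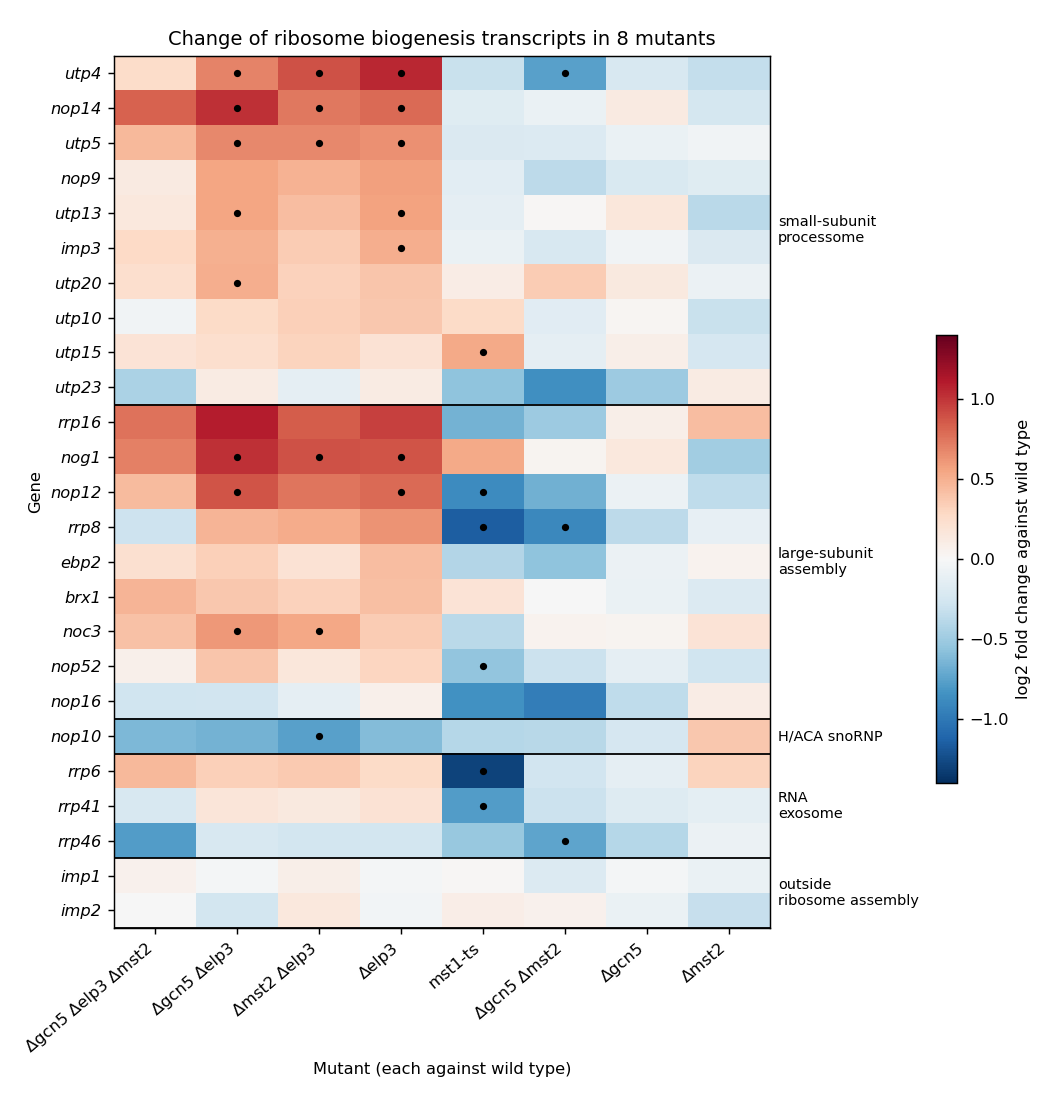
Log2 fold change against wild type (colour) of the 25 members (y axis, grouped by role) in the 8 mutants (x axis); black dots mark an adjusted p under 0.05. Dots on red cells lie in the columns of Δgcn5 Δelp3, Δmst2 Δelp3 and Δelp3, with utp15 in mst1-ts as the single other one, and the strongest blue cell is rrp6 in mst1-ts at -1.30.

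These rises cannot be told apart from the experiment date, because wild type lay on the first date and all arrays lacking elp3 on the second. The single link between the dates is Δgcn5 Δmst2. With the date as a covariate, no member passed in Δelp3, Δgcn5 Δelp3 or Δmst2 Δelp3 by limma, where 2.19%, 2.11% and 1.53% of all features rose and 0.361%, 0.522% and 0.161% fell. At an unadjusted p under 0.05, 1 member was higher and 1 lower in Δelp3, 1 was higher in Δgcn5 Δelp3 and none in Δmst2 Δelp3. The median over members was then 0.11 in Δelp3, 0.28 in Δgcn5 Δelp3 and 0.17 in Δmst2 Δelp3. In that fit utp4 had a change of 0.91 ± 0.40 in Δelp3 (adjusted p = 0.259) and nog1 of 0.78 ± 0.41 (adjusted p = 0.368). Single libraries also moved the counts. In Δelp3, 11 members rose without wild-type replicate 1, against 10.9% of all features. Without wild-type replicate 3 only 1 rose, against 11.1% of all features, and 2 rose without either Δelp3 replicate 1 or replicate 3. With each of the 6 arrays left out in turn, utp4 was the member that passed every time. In Δgcn5 Δelp3, 1 rose without wild-type replicate 3 (10.5% of all features) and none without either of its own arrays. In Δmst2 Δelp3, 1 rose and 1 fell without wild-type replicate 3 (10.7% and 7.07%), and none passed without its own replicate 2. Shares of all features are not given for the fits without a mutant array. The counts from those fits therefore do not set the members apart from other features.

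Loss of elp3 can be set within 1 date by comparing the triple mutant with the single Δgcn5 Δmst2 array of the second date, a comparison chosen after the data were seen. This sets 1 array against 1 array, so no replicate of either strain backs the differences and none is called here. The median difference over members was 0.32. The utp4 transcript read 11.21 in the triple mutant and 10.30 in that Δgcn5 Δmst2 array, and nop12 read 11.20 in the triple mutant and 10.38 in that array. The difference was 0.60 for the 25S rRNA methyltransferase gene rrp8, 0.47 for brx1, a large-subunit factor, and -0.47 for utp20. The genes named here were not chosen by size. Unnamed so far, rrp16 (11.98 against 11.32), nog1 (12.77 against 12.16) and nop14 (11.61 against 11.03) differed by more than brx1. Of the 25 members, 19 were higher in the triple mutant. For utp20 that Δgcn5 Δmst2 array, at 12.71, also differed from its own replicates, at 12.18 and 12.21. With all 24 arrays no member passed in this comparison (3.21% of all features rose and 3.61% fell), 6 were higher at an unadjusted p under 0.05, and the median was 0.48, with utp4 at 1.01 ± 0.30 (adjusted p = 0.0532).

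Removing gcn5 or mst2 as well as elp3 gave no member a detectable further change. Against Δelp3, on the same date, no member passed in Δgcn5 Δelp3 (0.502% of all features rose and 0.602% fell) or in Δmst2 Δelp3 (0.161% and 0.602%), and none had an unadjusted p under 0.05 in either, by limma on all arrays. Fitted on the second-date arrays alone, none passed either, while nop16 and utp4 were lower in Δgcn5 Δelp3, and utp23 in Δmst2 Δelp3, at an unadjusted p under 0.05. Changes ran from -0.36 to 0.24 in Δgcn5 Δelp3 and from -0.24 to 0.19 in Δmst2 Δelp3, with medians of -0.00 and -0.06. The most negative was utp4 in Δgcn5 Δelp3, which read 11.56 and 11.76 there and 12.12, 11.92 and 12.01 in Δelp3, with no overlap (-0.36, 95% interval -0.86 to 0.15). In Δmst2 Δelp3 it read 11.68, 12.13 and 11.74, and its arrays overlapped those of Δelp3 (-0.17, interval -0.62 to 0.29). For nog1 the intervals were -0.39 to 0.67 in Δgcn5 Δelp3 and -0.46 to 0.48 in Δmst2 Δelp3, so that a difference of the size of its rise in Δelp3 lies outside both. Without overlap, 3 members lay above and 3 below Δelp3 in Δgcn5 Δelp3 (21.7% and 21.8% of all features), while in Δmst2 Δelp3 none lay above and 3 below (7.13% and 8.57%). The departure of each double mutant from the sum of its single mutants passed for no member, with none at an unadjusted p under 0.05 for any pair of genes in the fit on all arrays. With the date as a covariate none passed, and rrp16 and rrp6 were lower at an unadjusted p under 0.05 for gcn5 with mst2. Medians were 0.06 for gcn5 with elp3 (0.201% of all features rose and 0.141% fell), 0.08 for mst2 with elp3 (0.100% and 0.281%) and -0.04 for gcn5 with mst2 (0.883% and 0.502%). These estimates are loose: the interval of rrp16 ran from -2.22 to 0.17 for gcn5 with mst2 and from -1.21 to 1.33 for gcn5 with elp3. Both interactions with elp3 use the doubted Δgcn5 or Δmst2 libraries, and without these the medians were 0.19 and 0.03, and 0.07 for gcn5 with mst2, again with no member past the test.

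**Figure D3:**
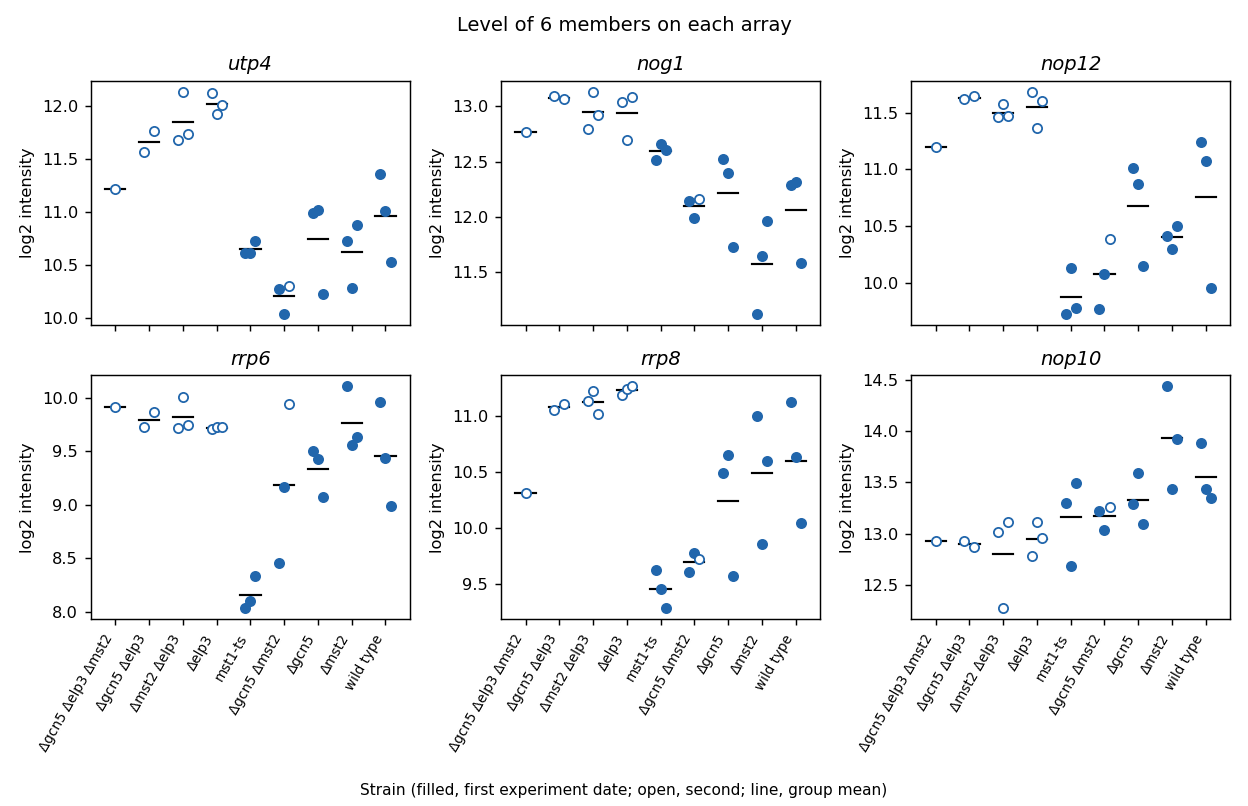
Log2 intensity (y axis) of 6 members on each array by strain (x axis), with filled circles for the first experiment date, open circles for the second and lines for group means. In Δelp3 the utp4 values of 11.92 to 12.12 clear the wild-type values, and rrp6 in mst1-ts reaches no more than 8.34. By group mean, nop10 lies below wild type in the strains lacking elp3. The others lie above it there, except rrp8 in the triple mutant.

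In mst1-ts, on the same date as wild type, 5 members fell and 1 rose, which is 20% and 4% against 21.8% and 13.7% of all features, so that the share that fell was near that of all features. The members had a median of -0.31, against -0.07 over all features. All 3 exosome genes had every mst1-ts array below every wild-type array. The nuclear exosome exonuclease gene rrp6 read 8.03, 8.10 and 8.34 in mst1-ts, against 9.96, 9.43 and 8.98 in wild type. It fell by 1.30 ± 0.28 on the log2 scale (limma adjusted p = 0.00158), the largest fall of any member in any comparison with wild type. Its probe set is dim, with a mean of 9.41 against a limit of 9.70 for the dimmest 20% of features, and it was the 1 member that a filter on these removed. The exosome ring subunit gene rrp41 read 10.39, 10.41 and 10.52 in mst1-ts, against 11.37, 11.48 and 10.83 in wild type, and fell by 0.79 ± 0.16 (adjusted p = 0.000997). The third, rrp46, had a change of -0.53 ± 0.26 (adjusted p = 0.117). Among large-subunit genes, rrp8 read 9.62, 9.45 and 9.28 in mst1-ts, against 11.13, 10.63 and 10.05 in wild type, without overlap, and fell by 1.15 ± 0.28 (adjusted p = 0.0043). The nop12 and nop52 transcripts fell by 0.88 ± 0.26 and 0.55 ± 0.18, although neither lay wholly below wild type. Both were lost within the first date, where rrp6, rrp8 and rrp41 fell and utp15 rose (16.1% of all features fell and 11.2% rose), and these 4 also passed in all 6 fits that left out 1 array. Both were likewise lost without mst1-ts replicate 1, wild-type replicate 1 or wild-type replicate 2, and nop52 also without mst1-ts replicate 2. Without wild-type replicate 3, 9 members fell and 1 rose, against 20.1% and 13.3% of all features, and without wild-type replicate 1, 3 fell and 1 rose (16.0% and 10.5%).

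None of the 10 small-subunit processome members fell in mst1-ts, and their median was -0.14, against -0.55 over the 9 large-subunit members, a difference that was not tested. The UtpA subunit gene utp15 rose, reading 12.06, 11.97 and 11.77 in mst1-ts, against 11.45, 11.52 and 11.22 in wild type, without overlap (0.54 ± 0.15, limma adjusted p = 0.0084). In large-subunit assembly, nog1 also lay wholly above wild type, with 12.51, 12.66 and 12.61 in mst1-ts against 12.29, 12.31 and 11.58 in wild type, but did not pass (0.53 ± 0.22, adjusted p = 0.0736). By overlap, 2 members lay above and 4 below wild type (8.00% and 16.0%, against 21.0% and 29.5% of all features). Genes of the stress response moved beside these: 12 of 22 rose in mst1-ts and none fell, with array medians of 0.85 to 0.89 against -0.39 to 0.30 in wild type. All 4 measured P-cell-specific genes rose too, with array medians of 1.5 to 1.83 against -0.19 to 0.09. Their part in the members' values was not tested.

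**Figure D4:**
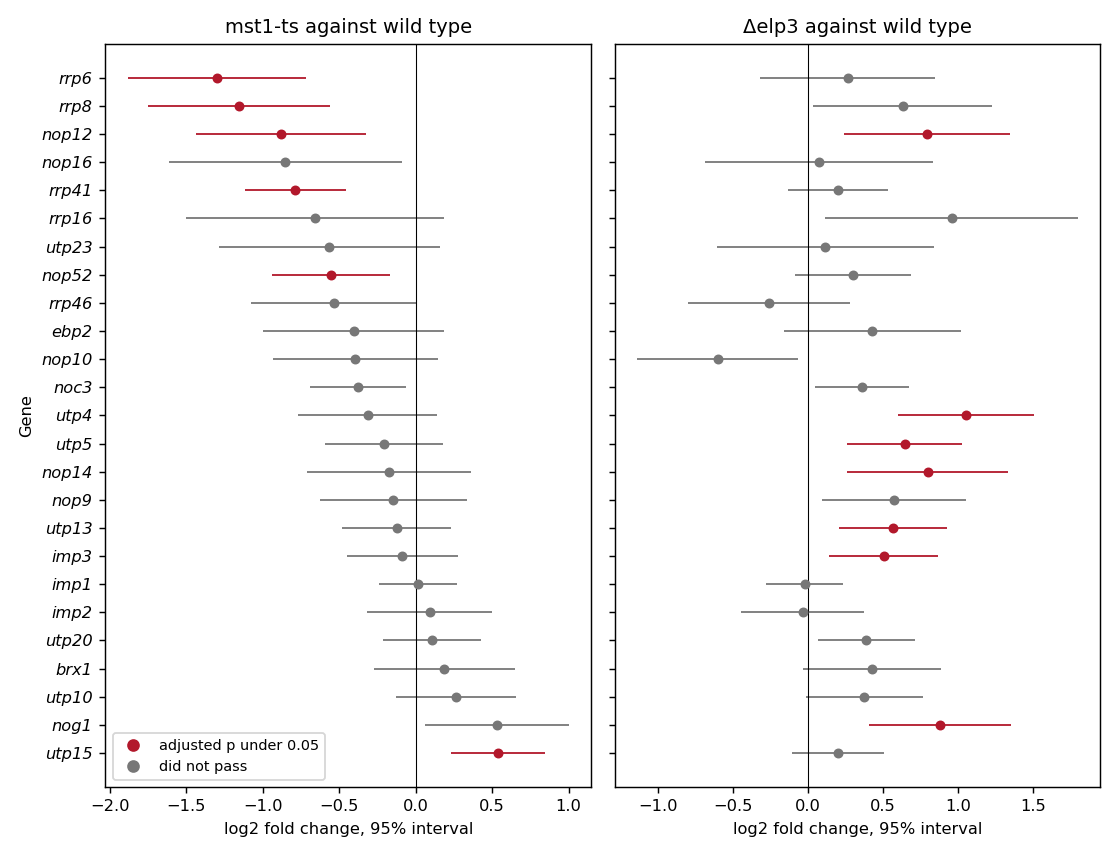
Log2 fold change with 95% interval (x axis) of each member (y axis, from the most negative to the most positive in mst1-ts) for mst1-ts against wild type (left) and Δelp3 against wild type (right); red marks an adjusted p under 0.05. The red points in mst1-ts are rrp6, rrp8, nop12, rrp41 and nop52 below 0 and utp15 above it, while those in Δelp3 all lie above 0.

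In Δgcn5 Δmst2, 3 members fell and none rose, which is 12.0% against 11.3% and 13.6% of all features, a share near the background. The median over members was -0.27. The rrp8 transcript read 9.61, 9.77 and 9.72 in Δgcn5 Δmst2, below all wild-type arrays, and fell by 0.90 ± 0.28 (limma adjusted p = 0.0267). The utp4 transcript read 10.27, 10.03 and 10.30, also below all wild-type arrays, and fell by 0.76 ± 0.22 (adjusted p = 0.0161). The exosome subunit gene rrp46 read 10.50, 10.07 and 9.91 in Δgcn5 Δmst2, against 11.21, 10.79 and 10.70 in wild type, and fell by 0.74 ± 0.26 (adjusted p = 0.0437). With nop10, these were the 4 members wholly below wild type (16.0%, against 20.3% of all features), and none lay above (21.6%). Within the first date, with 2 arrays of Δgcn5 Δmst2, none passed by limma (3.37% of all features fell and 5.24% rose at an adjusted p under 0.05). At an unadjusted p under 0.05, 6 were lower, and the share of all features at that level is not given. The count of falls was 0 without wild-type replicate 1 (6.65% of all features fell) and 10 without wild-type replicate 3 (10.8%). It was 0 without Δgcn5 Δmst2 replicate 2, and 1 without wild-type replicate 2 or Δgcn5 Δmst2 replicate 3. Shares of all features are not given for these latter fits, so their counts do not set the members apart. Leaving out the 2 doubted libraries, which narrows the pooled spread, gave 5 falls, with nop16 and utp23 added, against 13.7% of all features. Within this group rrp6 read 8.45 and 9.16 on the first date and 9.94 on the second, the widest range of any group for this gene. Stress response genes rose in 6 of 22 and fell in 2, with array medians of 0.54 to 0.62, and all 4 P-cell-specific genes rose. Their part was not tested.

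Loss of gcn5 or of mst2 alone changed no member by this test. In Δgcn5 the median was -0.09, with no member past the limma test (0.00% of all features rose and 0.120% fell) and none at an unadjusted p under 0.05. In Δmst2 it was -0.14, with none past the test (0.00% of all features rose and 0.161% fell). At an unadjusted p under 0.05, 2 were lower, nog1 (-0.49 ± 0.22) and utp13 (-0.38 ± 0.17). The share of all features at that level is not given. No member lay wholly above or below wild type in either group (3.01% and 3.98% of all features in Δgcn5, 5.68% and 6.18% in Δmst2). Without the 2 doubted libraries, nop10 and rrp46 lay wholly below in Δgcn5 (16.6% of all features, with 15.0% above) and nop10 wholly above in Δmst2 (14.2%, with 13.9% below). Without the 2 doubted libraries the medians were -0.20 in Δgcn5 and -0.11 in Δmst2, and still no member passed, while 3.47% of all features rose and 2.61% fell in Δgcn5, and 0.141% and 0.442% in Δmst2. The intervals leave room for moderate changes: that of utp4 was -0.67 to 0.23 in Δgcn5 and -0.79 to 0.11 in Δmst2, and its changes without the 2 libraries were -0.36 ± 0.22 and -0.17 ± 0.22.

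The triple mutant is 1 array, and its spread was taken from the other groups. No member passed against wild type by limma (6.36% of all features rose and 5.40% fell), while 2 were higher and 1 lower at an unadjusted p under 0.05. The higher ones were nop14 (0.82 ± 0.36) and nog1 (0.70 ± 0.32), and the lower one was rrp46, at 10.12 in the triple mutant against 11.21, 10.79 and 10.70 in wild type (-0.78 ± 0.36). The utp4 value of 11.21 lay within the wild-type range and rrp8, at 10.32, did too. The median over members was 0.19, and -0.04 with the date as a covariate.

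Over the 9 group means, nop12, rrp16, rrp8, utp4, rrp6 and nog1 varied most, with standard deviations of 0.65, 0.64, 0.62, 0.62, 0.55 and 0.51 log2 units. The importin gene imp1 varied least (0.08), with group means between 11.95 in Δgcn5 Δmst2 and 12.23 in Δmst2 Δelp3, and 12.14 ± 0.17 (SD, n = 3) in wild type. The cytokinesis gene imp2 varied by 0.16, and neither passed in any comparison. For utp4, ordered by group mean, the levels ran from Δelp3 (12.02 ± 0.10, SD) through Δmst2 Δelp3 (11.85 ± 0.24), Δgcn5 Δelp3 (11.66 ± 0.14), the triple mutant (11.21), wild type (10.96 ± 0.42), Δgcn5 (10.74 ± 0.45), mst1-ts (10.65 ± 0.06) and Δmst2 (10.62 ± 0.31) to Δgcn5 Δmst2 (10.20 ± 0.15). Neighbours from wild type to Δmst2 in that order lay closer than the larger of their SDs. Without the 2 doubted libraries Δgcn5 averaged 10.60 and Δmst2 10.80, so that Δmst2, mst1-ts and Δgcn5 then followed wild type in that order. For rrp6 the groups lacking elp3, Δmst2, wild type and Δgcn5 lay between 9.91 and 9.33, with Δgcn5 Δmst2 at 9.18 ± 0.74 and mst1-ts apart at 8.16 ± 0.16. Without the doubted libraries Δmst2 averaged 9.87 and Δgcn5 9.29 for this gene.

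Of the 25 members, 16 passed against wild type in at least 1 mutant and 9 in none. The matching share of all features was not counted, and in mst1-ts alone 13.7% of all features rose and 21.8% fell. The 9 were utp10, utp23 and nop9 of the processome, brx1, ebp2, nop16 and rrp16 of large-subunit assembly, and imp1 and imp2. Among them nop16 and utp23, named here after their values were seen, as was nop9, had changes of at most 0.12 above wild type in any mutant and their lowest values in Δgcn5 Δmst2. The large-subunit gene nop16 read 9.42, 9.69 and 10.11 in Δgcn5 Δmst2, against 11.44, 10.74 and 9.96 in wild type (-0.97 ± 0.36, limma adjusted p = 0.0567). Wild-type replicate 3 lay within the range of Δgcn5 Δmst2. The processome gene utp23 read 9.87, 9.99 and 10.43 in Δgcn5 Δmst2, against 11.55, 11.05 and 10.25 in wild type, again with overlap through replicate 3 (-0.86 ± 0.34, adjusted p = 0.0753). The processome gene nop9 read 12.61, 12.47 and 12.68 in Δelp3, against 12.43, 12.20 and 11.41 in wild type, without overlap but short of the threshold (0.57 ± 0.22, adjusted p = 0.0807). The changes of utp10, a UtpA subunit gene, lay between -0.32 and 0.37 over the 8 mutants, those of brx1 between -0.19 and 0.48, and those of ebp2, another large-subunit gene, between -0.57 and 0.43.

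The members moved together from array to array. The mean pairwise correlation over the 24 arrays was 0.47 among the 25 members and 0.53 among the 23 that act in ribosome assembly, against 0.01 among all features and 0.23 among the 119 ribosomal protein genes. After the group means were removed it was 0.51 over the 25 members, on the 23 arrays of groups with more than 1 array, against 0.01 among all features and 0.19 among ribosomal protein genes. Arrays share their hybridisation and normalization across genes, so these are descriptions of the arrays. The gene most like the mean of the other assembly members was nop9, an RNA-binding processome factor (r = 0.96), with nop12 next (0.95). The least alike were nop10 (-0.26), imp2 (-0.11) and utp15 (0.24). The part of the spread that lay within groups is seen in wild type, where rrp16 read 12.21, 11.42 and 10.02 and nop12 read 11.24, 11.07 and 9.96 in replicates 1, 2 and 3, while imp1 read 12.16, 12.30 and 11.96.

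Ribosome assembly factors whose names do not match the pattern were counted in the same comparisons. Of 94 such genes listed from general knowledge, 41 were measured under these names. Their median change was 0.40 in Δelp3, where 8 passed upward and 1 downward (19.5% and 2.44%, against 13.0% and 8.49% of all features). It was -0.24 in mst1-ts, where 6 passed, all downward (14.6% against 21.8%). In Δgcn5 Δmst2, 1 rose and 9 fell, 2.44% and 22.0% against 13.6% and 11.3% of all features (median -0.35). In Δgcn5 Δelp3, 5 rose and 1 fell, 12.2% and 2.44% against 12.5% and 9.01% (median 0.30). In Δmst2 Δelp3, 8 rose and 1 fell, 19.5% and 2.44% against 12.7% and 9.19% (median 0.30). The 16 measured genes of RNA polymerase I and its initiation factors, which make the precursor RNA, had 2 rises and no fall in Δelp3. The share that rose was 12.5%, against 13.0% of all features, and the median was 0.17. They had no rise and 5 falls in mst1-ts (-0.35) and no rise and 4 falls in Δgcn5 Δmst2 (-0.46). The 119 cytosolic ribosomal protein genes had no rise in any of these strains, with medians between -0.11 and -0.01. They had 5 falls in Δelp3 (4.20% against 8.49% of all features), 3 in mst1-ts (2.52% against 21.8%) and 11 in Δgcn5 Δmst2 (9.24% against 11.3%). They had 9 in Δgcn5 Δelp3 (7.56% against 9.01%) and 19 in Δmst2 Δelp3 (16.0% against 9.19%). By overlap, 65.5% of them lay wholly below wild type in Δgcn5 Δelp3, 58.8% in Δgcn5 Δmst2 and 46.2% in Δmst2 Δelp3. The shares of all features there were 29.0%, 20.3% and 19.7%. In Δelp3 31.1% lay wholly below, against 19.3% of all features, and in mst1-ts 21.0%, against 29.5%. The 22 stress response genes had a median of -0.35 in Δelp3, where 1 rose and 2 fell, and of 0.84 in mst1-ts. These comparisons share the wild-type arrays.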

How the data were processed

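The authors deposited 1 log2 intensity for each probe set and array, obtained with RMA, which corrects background, equalises the distributions of arrays by quantiles and summarises probes. They tested these with limma, in versions that the sources used here do not give. Of 5028 probe sets, 29 controls and 18 dimmer probe sets of genes with several were left out. Symbols were updated by gene identifier through RefSeq (assembly ASM294v3; 2914 identifiers found), which was used for names only, and 2082 features had no symbol. Members and gene lists were chosen with earlier results of these data known.

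A mean per group was fitted to all 24 arrays with limma 3.58.1 in R 4.3.3 (15 residual and 2.92 prior degrees of freedom), and tests were two-sided. The fit was tested on simulated data. Genes named by rule are the 5 members with the largest change in each direction among those past the test. The rule also takes the 6 with the most variable group means, imp1, imp2 and members of named complexes. Other members are named in full lists or after their values were seen. The fold threshold in the methods, although worded for log2 values, was taken as 3.25-fold. Alternatives were other normalizations, array weights, a filter on the dimmest 20%, the date as a covariate or within dates, only the groups compared, the replicate block, the doubted libraries left out, and each array left out. The number of arrays limits the precision. The platform annotation also calls another probe set rrp12, a name RefSeq gives to a different gene, so it was not counted as a member.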

Additional observations from a re-analysis of the deposited data

How the results depend on the processing

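No value of the 16 named members changed direction across a call in any of the alternatives. Of their values, 2616 kept their side of the threshold, 101 lost it and 64 gained it. Outside these 16 members, utp20, which rose by 0.51 in Δgcn5 Δelp3, ran as low as -0.004 under the alternatives (highest limma adjusted p 0.996). Counts of members past the test moved as follows. The share of all features under each setting is not given in this section, so these counts do not set the members apart. Array weights, whose fit did not fully converge, gave 5 in Δgcn5, 6 in Δmst2, 13 in Δelp3, 17 in mst1-ts, 20 in Δgcn5 Δmst2, 16 in Δgcn5 Δelp3, 12 in Δmst2 Δelp3, 7 in the triple mutant, 1 in Δgcn5 Δelp3 against Δelp3, 15 for the interaction of gcn5 and mst2 and 17 in the triple mutant against Δgcn5 Δmst2. The date as a covariate gave 0 in Δelp3, Δgcn5 Δelp3 and Δmst2 Δelp3 and 1 in Δgcn5 Δmst2, the first date alone gave 0 in Δgcn5 Δmst2, and the second date alone gave 5 in the triple mutant against Δgcn5 Δmst2, where the lone array of each was assumed to vary like the other groups. Fitting only the groups compared gave 3 in Δelp3, 0 in Δgcn5 Δmst2, 1 in Δgcn5 Δelp3 and 3 in Δmst2 Δelp3. Leaving out both doubted libraries gave 5 in Δgcn5 Δmst2 and 1 in the triple mutant against Δgcn5 Δmst2, as did median centring and quantile normalization, 1 each, in that last comparison. The 3.25-fold threshold gave 0 everywhere, including Δelp3, mst1-ts, Δgcn5 Δmst2, Δgcn5 Δelp3 and Δmst2 Δelp3. An unadjusted p under 0.05 gave 2 in Δmst2, 13 in Δelp3, 7 in Δgcn5 Δmst2, 12 in Δmst2 Δelp3, 3 in the triple mutant and 6 in the triple mutant against Δgcn5 Δmst2. Other causes were not tested.

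With 1 array left out at a time, Δelp3 had between 1 and 11 members past the test, mst1-ts between 4 and 10, Δgcn5 Δmst2 and Δgcn5 Δelp3 each between 0 and 10, and Δmst2 Δelp3 between 0 and 7. All other comparisons stayed at 0. Replicate numbers did not pair the arrays: deviations from group means of arrays with the same number had a median correlation of -0.01 (-0.70 to 0.56 over 63 pairs), against -0.01 for other numbers, and 5 of 21 arrays were most like their own number. With the replicate block, 4 members were called in Δgcn5 Δelp3 in place of 8, and no other count moved by over 1.5 times.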

Other observations

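The probe set that the platform annotation names rrp12, and RefSeq gives only a locus tag, was lower in mst1-ts than in wild type by limma over all features (-0.41 ± 0.13, adjusted p = 0.0241). It had a change of 0.33 ± 0.13 in Δelp3 (adjusted p = 0.0874) and of -0.33 ± 0.13 in Δgcn5 Δmst2 (adjusted p = 0.0813). With this probe set included, 26 genes matched the pattern.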
